A study of Arabidopsis thaliana with 6 samples.

Results

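The enzymes of the Calvin cycle and of photorespiration were followed through 33 genes, taken by identifier from the 18368 genes of the deposited table that could be used. Of these, 20 encode plastid enzymes of the Calvin cycle, Rubisco activase and the small CP12 regulators, and 13 encode enzymes of photorespiration. The small subunit genes of Rubisco are not among them. RNA was sequenced from whole wild type (Col-0) Arabidopsis seedlings in 2 groups of 3 libraries, and replicates came from separate plates. Seedlings of the 4v group were vernalized, with 7 days of growth at 22 °C followed by 28 days at 5 °C, and those of the 0v group were harvested without vernalization after 11 days at 22 °C. The groups therefore also differed in age, 35 days in 4v and 11 days in 0v, and the effects of cold and of age cannot be told apart. No allele or transgene was carried by either group.

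Rubisco fixes carbon dioxide onto ribulose bisphosphate, and the Calvin cycle reduces the 3-phosphoglycerate that forms and regenerates the acceptor. When Rubisco takes up oxygen in place of carbon dioxide it makes 2-phosphoglycolate, which photorespiration recycles to 3-phosphoglycerate along a route that leaves the chloroplast, passes through peroxisome and mitochondrion, and comes back. Both pathways run in green tissue in the light, and many of their genes are expressed most in leaves.

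The values are normalized counts, that is reads per gene divided by 1 size factor per library. Depth was uneven, with 23141488 reads in 4v replicate 2, 20005225 in 0v replicate 3, and 1636687 to 1836717 reads in the other 4 libraries. All 33 genes passed the filter on low values, a mean normalized count of at least 10. The groups were compared with limma on log2(normalized count + 4), and p-values were adjusted over all 16771 genes tested. A gene was called at an adjusted p under 0.05, and a log2 difference is always 4v minus 0v on that scale. Where 4v is given as a percentage of 0v for a single gene, it is that difference written as a ratio.

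With all libraries, photorespiratory transcripts were lower in 4v at several steps, and those of the core Calvin cycle mostly did not pass the test. Of the 33 genes, 8 were called lower in 4v, where 6.99% of all genes tested were called lower. None was called higher, where 6.46% of all genes were, and none was higher at an unadjusted p under 0.05 with limma, limma-voom, edgeR or DESeq2. The 8 were 6 of the 13 photorespiration genes (*GLYK*, *HPR1*, *GGT1*, *AGT1*, *GOX1*, *GLDH3*) and 2 of the 20 Calvin cycle genes (*CP12-3*, *CP12-1*). The median log2 difference was −0.47 over the 33, against 0.05 over all genes tested. It was −0.69 over the photorespiration genes and −0.37 over the Calvin cycle genes. Without 1 library, 0v replicate 3, these 2 medians were nearly alike, −0.76 and −0.71. In that fit 9 of 13 and 10 of 20 genes were called lower, against 1440 over the whole table. In 12 of the 33 genes every 4v library lay below every 0v library, which held for 18.7% of all genes. No member had every 4v library above every 0v library, against 20.5% of all genes. The log2 difference was negative for 29 genes, and for 23 genes after quantile normalization of the log values, which moved the median over the 33 to −0.20.

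**Figure D1:**
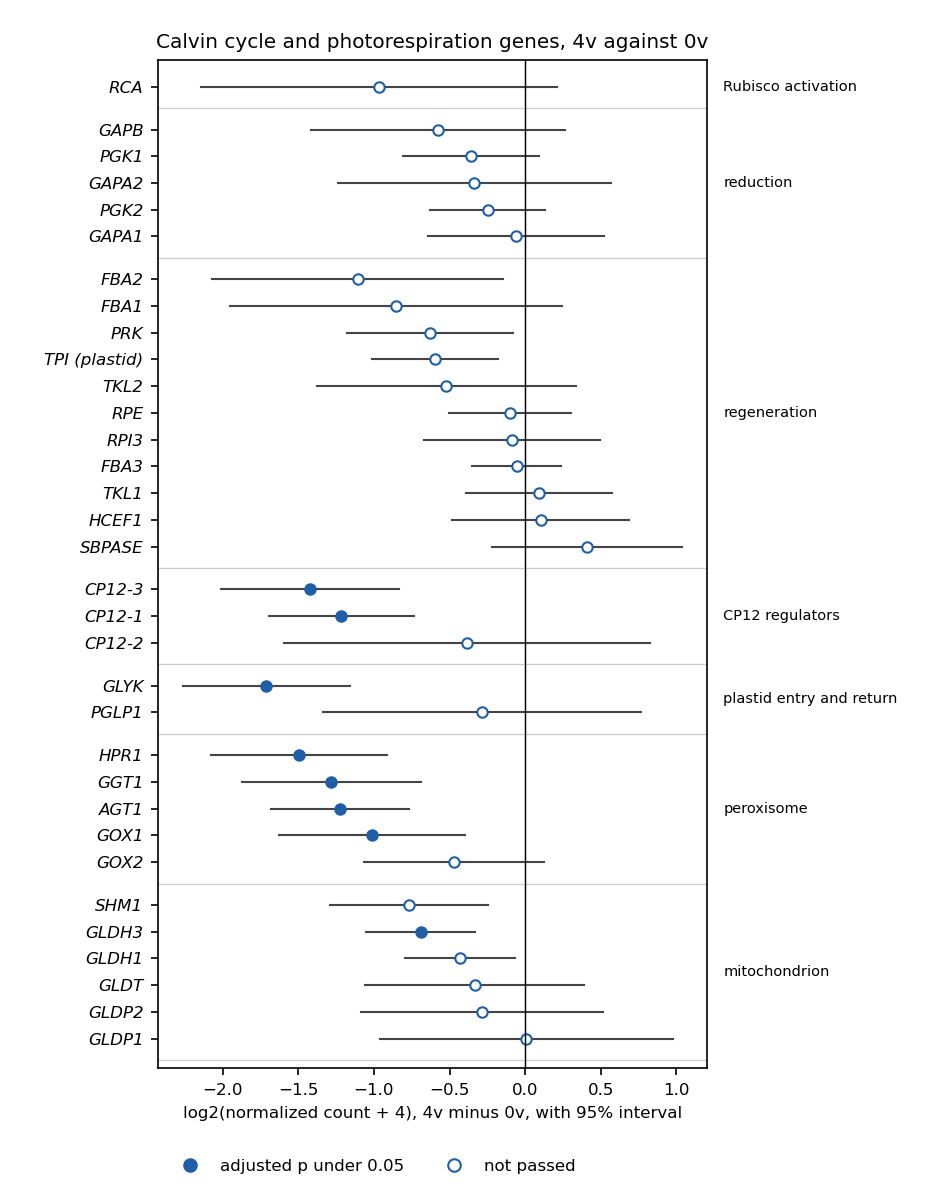
Difference of each of the 33 genes between 4v and 0v on the log2(normalized count + 4) scale, grouped by role, with the 95% interval of limma as a line. Filled points, the 8 genes with an adjusted p under 0.05, lie to the left of 0 between −1.71 (*GLYK*) and −0.69 (*GLDH3*), and 4 of the 5 peroxisomal genes are among them.

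Of the 2 photorespiration genes acting in the plastid, at the first and last step, 1 was called lower, against 6.99% of all genes tested. *GLYK* (AT1G80380, chromosome 1, 30217116 to 30220595) encodes glycerate kinase, which returns glycerate to the Calvin cycle as 3-phosphoglycerate. It had normalized counts of 599.9, 425 and 574 in 4v, against 1734, 1319.5 and 2283 in 0v. The 4v libraries were all far below the 0v libraries, and the level in 4v was 30.5% of that in 0v (log2 difference −1.71 ± 0.23 SE, limma adjusted p = 0.00733). *GLYK* had the largest difference of the 33 and was the only one called after each of the 6 libraries had been left out in turn, with log2 differences of −1.91 to −1.51. *PGLP1* (AT5G36700), the phosphatase that removes phosphate from 2-phosphoglycolate, had a log2 difference of −0.28 ± 0.45 SE, which did not pass (limma adjusted p = 0.699).

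*PGLP1* cannot be read on its own. A copy on the same chromosome, AT5G36790, has the same 1089 coding bases, so reads from the coding sequence cannot be assigned to one of them. The values of the copy swung between 30.5, 334 and 48.3 in 4v and between 492, 119 and 328 in 0v. The sum of both genes was 1041, 789 and 948 in 4v, against 1559.97, 1545 and 819.7 in 0v. The groups overlapped through 0v replicate 3, and the sum did not differ beyond the spread (exact permutation test, two-sided, p = 0.3, smallest possible p 0.1).

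In the peroxisome, 4 of 5 genes were lower in 4v, against 6.99% of all genes tested. The median log2 difference of the 5 was −1.23, against 0.05 over all genes. *HPR1* (AT1G68010, chromosome 1, 25493193 to 25496053), named *HPR* in the table, encodes the NADH-dependent hydroxypyruvate reductase that makes glycerate. Its counts were 1449.5, 1496 and 1777 in 4v, against 6226, 4275 and 3268 in 0v. The groups were well apart, with 4v at 35.4% of 0v (log2 difference −1.50 ± 0.25 SE, limma adjusted p = 0.0128). *GGT1* (AT1G23310, chromosome 1, 8268385 to 8272021), the glutamate:glyoxylate aminotransferase that makes glycine, had 7196, 6421 and 8044 in 4v, against 22628, 17489 and 13519 in 0v. All 4v libraries were again below all 0v libraries (log2 difference −1.28 ± 0.25 SE, limma adjusted p = 0.0207). *AGT1* (AT2G13360, chromosome 2, 5538740 to 5541479), the serine:glyoxylate aminotransferase, had 4196, 3652 and 4872 in 4v, against 11121, 8666 and 9928 in 0v. Its 0v libraries were close to each other, and 4v stood at 42.8% of 0v (log2 difference −1.23 ± 0.19 SE, limma adjusted p = 0.0114). After quantile normalization the differences of *GGT1* and *AGT1* were smaller, −0.66 and −0.78, and still called (limma adjusted p = 0.0182 and 0.0119).

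Glycolate oxidase, which turns glycolate into glyoxylate and hydrogen peroxide, is encoded by the neighbours *GOX1* (AT3G14420, named *GLO1* in the table, chromosome 3, 4821391 to 4824178) and *GOX2* (AT3G14415). *GOX1* had 3572, 3311 and 4344 in 4v, against 10305, 7543 and 5434 in 0v. The groups did not overlap, and *GOX1* was lower in 4v near the threshold of the test (log2 difference −1.01 ± 0.26 SE, limma adjusted p = 0.0462). The call was lost after quantile normalization (−0.63, limma adjusted p = 0.0577). *GOX2* had 2716, 2316 and 2885 in 4v, against 5076, 3668 and 2609.6 in 0v. Here 0v replicate 3 fell among the 4v libraries, and *GOX2* did not pass (log2 difference −0.47 ± 0.25 SE, limma adjusted p = 0.245).

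The coding sequences of *GOX1* and *GOX2* are 92.4% identical over 1104 aligned bases, and the genes lie 377 bases apart. Because reads of 75 bases had to tell them apart, a window of that length is shown from each gene, read from the RefSeq TAIR10.1 genome, coding bases 155 to 229 on the plus strand. Among the 339 such windows within 1 exon the genes differed at 2 to 15 bases, and the windows shown have the median number, 7 differences, in capitals.
GOX1, chr3:4822050-4822124: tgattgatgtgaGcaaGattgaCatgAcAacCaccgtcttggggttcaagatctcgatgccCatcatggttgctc
GOX2, chr3:4818920-4818994: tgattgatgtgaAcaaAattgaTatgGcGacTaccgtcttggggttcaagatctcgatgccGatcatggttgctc
No stretch of 75 coding bases of either was found unchanged in the other, and the same was true of the other 9 pairs of related members compared below.

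Within a library, *GOX2* stood closer to *GOX1* in 4v than in 0v. The log2 ratio of *GOX2* to *GOX1* was −0.39, −0.51 and −0.59 in 4v, against −1.02, −1.04 and −1.06 in 0v. The 0v libraries agreed closely, deep or shallow, and all 4v libraries were above them, a difference of 0.54. The exact permutation test gave p = 0.1, the smallest that 3 against 3 libraries allow, and 0.2 after adjustment over the 10 pairs compared. The sum of both genes was 6288, 5627 and 7229 in 4v, against 15381, 11211 and 8043 in 0v, so that 4v held 55.3% of the 0v mean without overlap (exact permutation test, two-sided, p = 0.1).

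**Figure D2:**
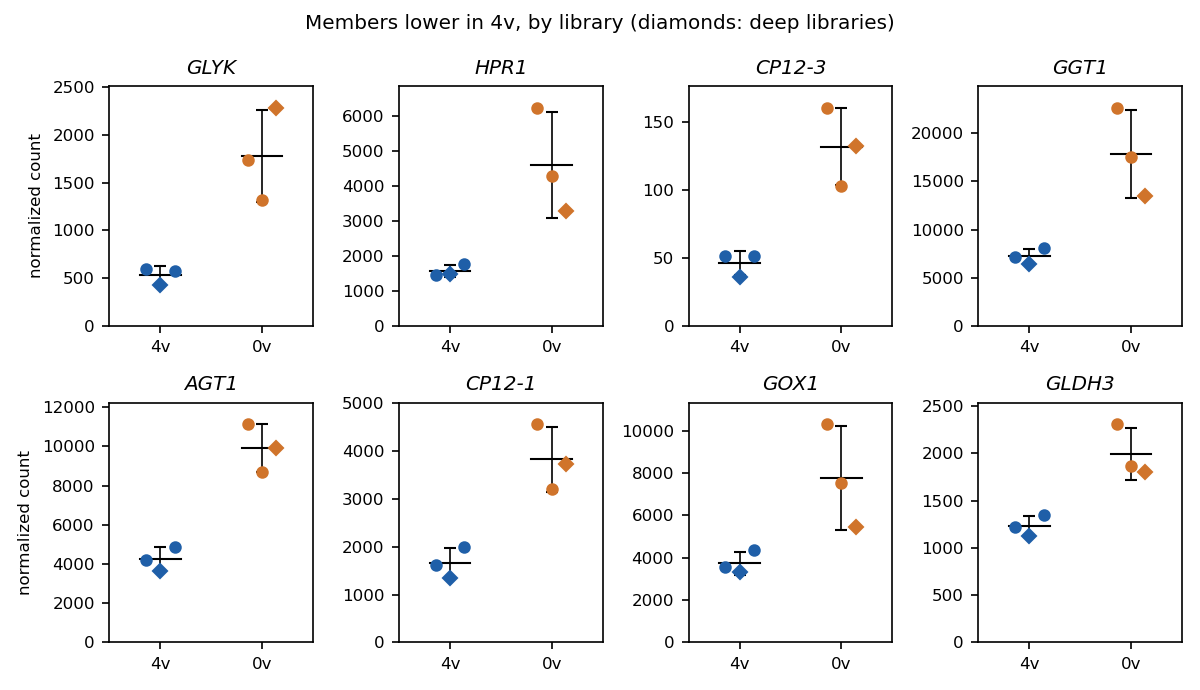
Normalized counts of the 8 genes called lower in 4v, by library, with the mean and SD of each group (n = 3). Diamonds mark the 2 deep libraries. In every panel the 3 values of 4v lie below the 3 of 0v, and for *GLYK* the deep 0v library is the highest, with 2283, whereas for *GOX1* it is the lowest 0v library, with 5434.

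The mitochondrial step, in which glycine decarboxylase and serine hydroxymethyltransferase turn glycine into serine, held 1 called gene of 6. Over all genes tested, 6.99% were called lower. *SHM1* (AT4G37930), the hydroxymethyltransferase, had the largest difference of the 6 genes, with 5296, 4969 and 6374 in 4v, against 11346, 9801 and 7457 in 0v. Its groups did not overlap, yet it missed the threshold (log2 difference −0.77 ± 0.22 SE, limma adjusted p = 0.0626). It was called lower by limma-voom (adjusted p = 0.0168) and DESeq2 (0.00173), and after quantile normalization its difference was −0.38. *GLDH3* (AT1G32470, named *GDH3* in the table, chromosome 1, 11739304 to 11740399), one of the lipoyl-carrying H proteins of glycine decarboxylase, had 1218, 1125 and 1343 in 4v, against 2308, 1868 and 1804 in 0v. It was lower in 4v with narrow spread (log2 difference −0.69 ± 0.15 SE, limma adjusted p = 0.0287). The related *GLDH1* (AT2G35370) also had all 4v libraries below all 0v libraries, but did not pass (log2 difference −0.43, limma adjusted p = 0.11). The T protein gene *GLDT* (AT1G11860) and the P protein genes *GLDP2* (AT2G26080) and *GLDP1* (AT4G33010) had log2 differences of −0.33, −0.28 and 0.01, and none passed.

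*GLDP1*, which encodes the decarboxylating subunit of the complex, had 4075, 3587 and 4239 in 4v, against 6182, 5085 and 1941 in 0v. The 4v values lay between those of 0v replicate 3 and those of the other 0v libraries, and the sign of its difference turned negative with limma-voom, edgeR and DESeq2 on the recovered reads (−0.12, −0.16 and −0.17).

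Of the Calvin cycle, Rubisco activase (*RCA*, AT2G39730), the chaperone that frees Rubisco of bound sugar phosphates, was the most abundant transcript of the 33 by far. Per kilobase of its longest annotated transcript, its normalized count averaged 10229 in 4v and 22512 in 0v, where the next gene by its level in 0v, *GGT1*, averaged 3275 in 4v and 8108 in 0v. The counts of *RCA* were 20811, 16214 and 23981 in 4v, against 68482, 46887 and 18896 in 0v. Replicates 1 and 2 of 0v were far above 4v, but 0v replicate 3 was below 2 of the 4v libraries, and *RCA* did not pass (log2 difference −0.97 ± 0.50 SE, limma adjusted p = 0.228). It was called lower by DESeq2 (−1.15, adjusted p = 0.0302) and in the 4 shallow libraries alone (−1.34, limma adjusted p = 0.0475). After quantile normalization the difference was 0.03. That scaling gives equal ranks equal values in every library, and its part in the smaller difference of *RCA* was not tested.

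None of the 5 genes of the reduction phase passed with limma on all libraries, limma-voom or edgeR, at an unadjusted p under 0.05 either. DESeq2 had 2 of the 5 at such an unadjusted p and called none. Without 0v replicate 3, limma called *GAPB* (−0.96, adjusted p = 0.0308) and *GAPA2* (−0.78, 0.0376) lower, against 1440 genes over the whole table. The 5 genes encode phosphoglycerate kinase (*PGK1*, AT3G12780, and *PGK2*, AT1G56190) and the subunits of the plastid glyceraldehyde-3-phosphate dehydrogenase (*GAPA1*, AT3G26650, *GAPA2*, AT1G12900, and *GAPB*, AT1G42970). With all libraries the largest difference was that of *GAPB*, with 4665, 3832 and 5548 in 4v, against 10602, 7691 and 4047 in 0v. Here, too, 0v replicate 3 fell within the 4v values (log2 difference −0.58 ± 0.36 SE, limma adjusted p = 0.309). The other 4 had log2 differences of −0.36 (*PGK1*) to −0.06 (*GAPA1*), and their groups overlapped.

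None of the 11 genes of the regeneration phase passed with limma on all libraries or with edgeR, and their median log2 difference was −0.10. With limma on all libraries 3 were lower at an unadjusted p under 0.05 (*FBA2*, *PRK* and *TPI*), for which no share of all genes is given here. These 3 were called lower by limma-voom and DESeq2, which called 2318 and 1389 of all 16771 genes lower. Without 0v replicate 3, limma called 4 of the 11 lower, against 1440 over the whole table. The aldolase gene *FBA2* (AT4G38970) had the largest difference of the phase, with 5524, 4378 and 6149.9 in 4v, against 18877, 12992 and 6059 in 0v. Replicate 3 of 0v lay just under the highest 4v library (log2 difference −1.11 ± 0.41 SE, limma adjusted p = 0.115). *FBA1* (AT2G21330), a second plastid aldolase, had −0.86, while *FBA3* (AT2G01140), the third, was nearly level, at 1032, 911 and 951 in 4v against 1079, 984 and 949 in 0v (log2 difference −0.06, 95% interval −0.35 to 0.24).

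In *PRK* (AT1G32060), phosphoribulokinase, and the plastid triosephosphate isomerase gene *TPI* (AT2G21170, named *TIM* in the table) all 4v libraries were below all 0v libraries, without passing the test (log2 differences −0.63 and −0.60, limma adjusted p = 0.116 and 0.0663). Such separation held for 18.2% of the 11 regeneration genes, near the 18.7% of all genes tested. The pentose phosphate isomerase and epimerase genes *RPI3* (AT3G04790) and *RPE* (AT5G61410) had log2 differences of −0.09 and −0.10, which were 0.01 and 0.17 after quantile normalization. Transketolase is encoded by *TKL1* (AT3G60750), with a difference of 0.09, and by *TKL2* (AT2G45290), with −0.52 but only 6 to 17 reads in each shallow library.

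The bisphosphatases of the cycle had the highest log2 differences of the 33, and neither passed. *SBPASE* (AT3G55800), sedoheptulose-1,7-bisphosphatase, had 4181, 3841 and 5097 in 4v, against 4444, 3475 and 2262 in 0v. The groups overlapped, and the difference of 0.41 ± 0.27 SE did not pass (limma adjusted p = 0.333). *HCEF1* (AT3G54050, named *CFBP1* in the table), the plastid fructose-1,6-bisphosphatase, had a difference of 0.10.

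Of the 20 Calvin cycle genes 2 passed with all libraries (10%), near the 6.99% of all genes tested, and both encode CP12 regulators. Without 0v replicate 3, 10 of the 20 were called lower, against 1440 over the whole table. CP12 proteins bind glyceraldehyde-3-phosphate dehydrogenase and phosphoribulokinase in the dark and hold both inactive. *CP12-3* (AT1G76560, chromosome 1, 28728206 to 28728976) had 51.8, 36.3 and 51.1 in 4v, against 160.4, 103 and 132 in 0v, which rested on 17 to 47 reads in the shallow libraries. All 4v libraries were below all 0v libraries (log2 difference −1.43 ± 0.25 SE, limma adjusted p = 0.0151). *CP12-1* (AT2G47400, chromosome 2, 19446730 to 19447642) had 1623, 1350.3 and 1988 in 4v, against 4564, 3219.8 and 3723 in 0v. It was lower in 4v, at 43.1% of 0v (log2 difference −1.21 ± 0.20 SE, limma adjusted p = 0.0134).

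*CP12-2* (AT3G62410) differed from both relatives in its 0v values. It had 393, 343 and 545 in 4v, against 935, 781 and 224 in 0v. The lowest of the 6 values was that of 0v replicate 3, and *CP12-2* did not pass (log2 difference −0.38 ± 0.51 SE, limma adjusted p = 0.641). In that library *CP12-1* and *CP12-3* lay between the other 0v replicates.

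**Figure D3:**
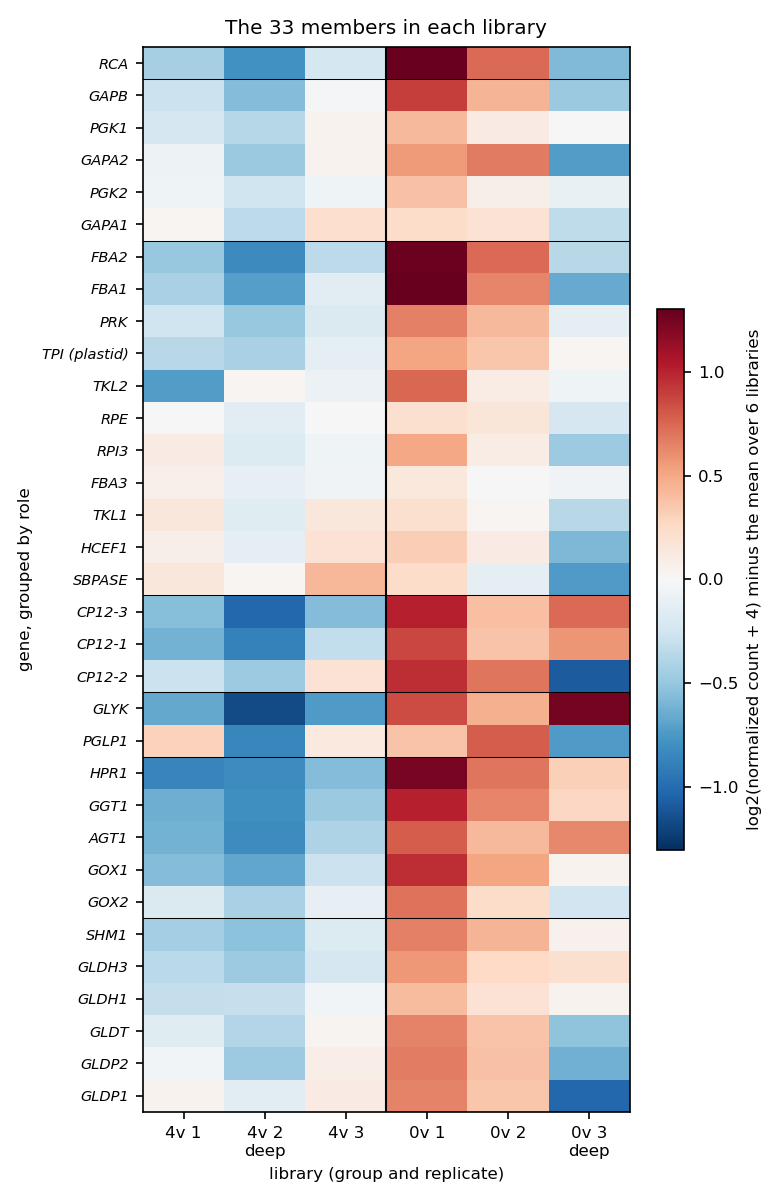
Each of the 33 genes in each library, as log2(normalized count + 4) minus the mean of the gene over the 6 libraries, with genes grouped by role and the 4v libraries left of the line. The first 2 libraries of 0v are above the gene mean for nearly every gene, and the deep 0v library is below it for *RCA*, *FBA1*, *CP12-2* and *GLDP1*, but above it for *GLYK*, *AGT1*, *CP12-1* and *CP12-3*.

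One library weighed on most of these results. Replicate 3 of 0v was the lowest 0v library for 29 of the 33 genes (87.9%), against 33.3% of all genes tested, and the median ratio of its value to the mean of the other 0v libraries was 0.628. For *RCA* that ratio was 0.328. Only *GLYK* was highest there, with *AGT1*, *CP12-1* and *CP12-3* in between. The other deep library, 4v replicate 2, was the lowest 4v library for 30 of the 33 genes (90.9%), against 32.3% of all genes.

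Replicate 3 of 0v also stood apart in genes of the circadian clock, which were looked up after the values had been seen. The evening gene *TOC1* had 987, 884 and 1042 in 4v, against 154, 197 and 876 in 0v. The morning gene *CCA1* had 372, 383 and 395 in 4v, against 331, 184 and 76.6 in 0v. A second morning gene, *LHY*, had 161, 146 and 76.7 in 4v, against 287, 161 and 88.7 in 0v. In *TOC1* 0v replicate 3 was close to the 4v libraries and far from the other 0v libraries, and none of the 3 genes passed (log2 differences 1.68, 1.17 and −0.39). Cold-induced genes, also looked up after the values had been seen, were read as a check of the labels. *VIN3*, which is induced by long cold, had 36.5, 76.2 and 122 in 4v, against 0, 0 and 1.05 in 0v. *COR15A*, a cold-regulated gene of the chloroplast stroma, had 9245, 14077 and 11405 in 4v, against 27.3, 12.9 and 25.8 in 0v. In both, 0v replicate 3 lay with the other 0v libraries. In *RD29A*, which responds to cold and to drought, it lay between the groups, with 10159, 14739.7 and 12200.5 in 4v, against 61.4, 83.9 and 1223 in 0v. The sources used here give no hour of harvest. The part of depth or of clock phase in the low values of this library was not tested.

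The 8 calls were set against fits with fewer libraries. Without 0v replicate 3, 19 of the 33 genes were called lower in 4v, 10 of the Calvin cycle and 9 of photorespiration, and none higher, with a median log2 difference of −0.74. Those gained included *RCA* (−1.50, limma adjusted p = 0.0197), *FBA2* (−1.56, 0.00847), *FBA1* (−1.40, 0.015), *CP12-2* (−1.02, 0.0237) and *SHM1* (−0.93, 0.0167). Leaving out another library gave fewer calls, 2, 4 and 5 without 4v replicates 1, 2 and 3, and 5 each without 0v replicates 1 and 2. The number of genes called lower over the whole table moved alike, to between 400 and 756 in these 5 fits, against 1172 with all libraries and 1440 without 0v replicate 3. *GOX1*, *GGT1* and *GLDH3* were lost in each of the 5 fits, *CP12-1*, *AGT1* and *HPR1* only without 4v replicate 1, and *CP12-3* only without 4v replicate 2.

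The shallow and the deep libraries gave unlike values for the Calvin cycle genes, though this was not tested. Over the 4 shallow libraries the median log2 difference was −0.65 for the Calvin cycle genes and −0.70 for the photorespiration genes. There 12 of the 33 genes were called lower, against 863 of the 16771 genes tested with all libraries. Between the 2 deep libraries, which allow no test, the median was −0.06 for the Calvin cycle and −0.59 for photorespiration. *GLYK* differed by −1.36 in the shallow and by −2.41 in the deep libraries, and *HPR1* by −1.68 and −1.13. For *FBA1* these values were −1.25 and −0.06.

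The same counts summed over the genes of a library showed the contrast again, and are not separate support for it. The 13 photorespiration genes held 0.754%, 0.705% and 0.814% of all normalized counts in 4v, against 1.45%, 1.32% and 1.02% in 0v. All 4v libraries were below all 0v libraries (exact permutation test, two-sided, p = 0.1). The 20 Calvin cycle genes held 1.54%, 1.34% and 1.65% in 4v, against 2.72%, 2.37% and 1.31% in 0v, so the groups overlapped through 0v replicate 3 (p = 0.4 in the same exact test). All 33 genes held 2.29%, 2.04% and 2.47% in 4v, against 4.17%, 3.68% and 2.33% in 0v (p = 0.2, exact). *RCA* made up 18.2%, 16.9% and 18.6% of that sum in 4v, against 27.0%, 24.0% and 15.4% in 0v.

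The ratio of the summed photorespiration genes to the summed Calvin cycle genes, formed after the values had been seen, was 0.491, 0.527 and 0.492 in 4v, against 0.535, 0.557 and 0.784 in 0v. It was lower in every 4v library than in every 0v library, though 4v replicate 2 and 0v replicate 1 were close (exact permutation test, two-sided, p = 0.1). Replicate 3 of 0v stood apart at 0.784, and the other 0v libraries, at 0.535 and 0.557, lay just above 4v. The SD was 0.138 in 0v and 0.021 in 4v. The tissue was whole seedlings, so fewer green cells and less RNA per green cell cannot be told apart in any of these values.

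**Figure D4:**
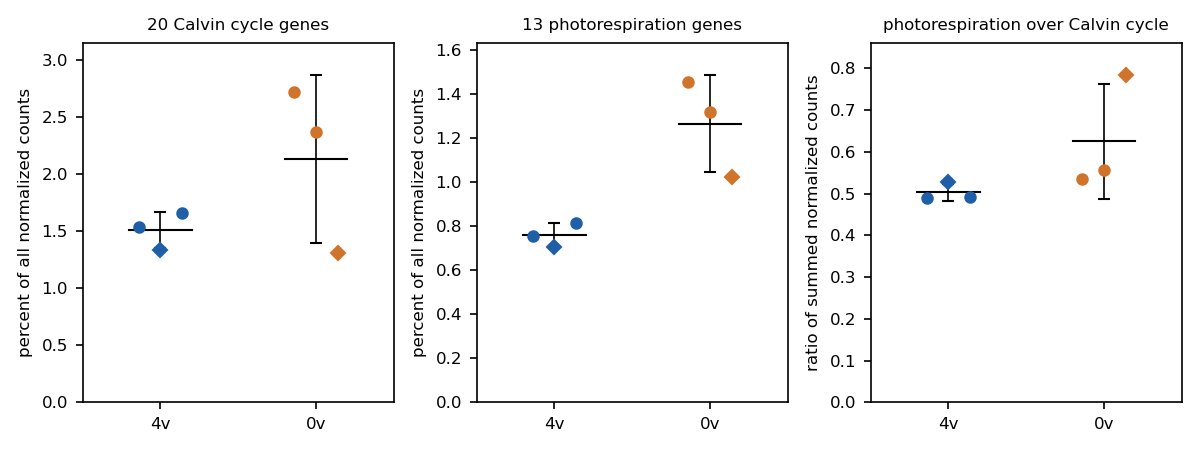
Share of all normalized counts held by the 20 Calvin cycle genes and by the 13 photorespiration genes, and the ratio of the summed counts of both, by library, with mean and SD (n = 3). Diamonds mark the deep libraries. For photorespiration the 4v libraries (0.705% to 0.814%) lie below all 0v libraries, and for the Calvin cycle the deep 0v library, at 1.31%, lies below the 4v libraries.

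Related genes of the 2 pathways were also set against each other. In 10 pairs, the log2 ratio within each library was compared between the groups, and no adjusted exact p was below 0.2. The groups did not overlap in 5 pairs. Apart from *GOX2* and *GOX1*, these were *FBA1* over *FBA2* (difference 0.25), *GLDH3* over *GLDH1* (−0.26), *GLDP2* over *GLDP1* (−0.29) and *CP12-1* over *CP12-2* (−0.83). Without 0v replicate 3 the differences were 0.53 for *GOX2* over *GOX1*, −0.24 for *GLDH3* over *GLDH1*, 0.16 for *FBA1* over *FBA2* and −0.16 for *GLDP2* over *GLDP1*. That of *CP12-1* over *CP12-2* rested on 0v replicate 3, where the log2 ratio was 4.03, against 2.28 and 2.04 in the other 0v libraries and 2.04, 1.96 and 1.86 in 4v, and it was −0.21 without that library. *PGK1* over *PGK2*, *GAPA1* over *GAPA2*, *FBA3* over *FBA2*, *TKL2* over *TKL1* and *CP12-3* over *CP12-2* overlapped.

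**Figure D5:**
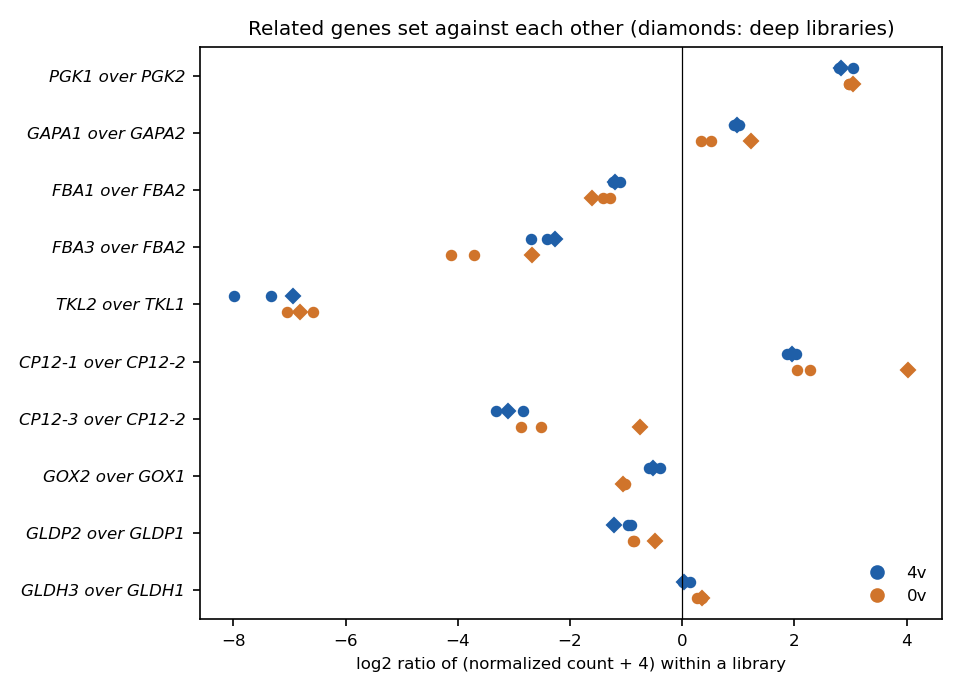
Log2 ratio of (normalized count + 4) between 2 related genes within each library, with 4v above 0v for each pair and diamonds for the deep libraries. For *GOX2* over *GOX1* the 0v libraries coincide near −1.04 and the 4v libraries lie between −0.59 and −0.39, whereas for *CP12-1* over *CP12-2* the deep 0v library stands alone at 4.03.

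Of 20 other genes of photorespiration, which include isoenzymes, transporters and the steps that deal with hydrogen peroxide and ammonia, 4 were lower and 2 higher in 4v, where 6.99% and 6.46% of all genes tested were called, with a median log2 difference of −0.04. *CAT2*, the catalase that breaks down the peroxide made by glycolate oxidase, had 1233, 1132 and 1374 in 4v, against 8749, 6136 and 2892 in 0v (log2 difference −2.11 ± 0.38 SE, limma adjusted p = 0.0158). The difference was larger than that of any of the 33 members, although 0v replicate 3 was again the lowest 0v library. *GLN2*, the plastid glutamine synthetase that takes up the released ammonia, was lower as well (−1.22 ± 0.23 SE, limma adjusted p = 0.0185). The other lower genes, *PMDH2* (−0.87), a peroxisomal malate dehydrogenase, and *HPR2* (−0.72), the cytosolic hydroxypyruvate reductase, fell outside the rule for named genes and are named because the count is small.

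Both higher genes encode isoenzymes or shared subunits. *GOX3*, a glycolate oxidase family gene, had 192, 219 and 179 in 4v, against 99.0, 106 and 93.2 in 0v (log2 difference 0.95 ± 0.16 SE, limma adjusted p = 0.0139). *mtLPD2*, which encodes the lipoamide dehydrogenase shared by glycine decarboxylase and other mitochondrial complexes, had 713, 821 and 613 in 4v, against 403, 336 and 439.7 in 0v (log2 difference 0.86 ± 0.17 SE, limma adjusted p = 0.0203). Both had all 4v libraries above all 0v libraries, which held for 20.5% of all genes.

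Among 15 genes that regulate the Calvin cycle, build Rubisco or export its products, 2 were lower and 2 higher, against the same 6.99% and 6.46% of all genes. *TRXF2*, a thioredoxin f that activates Calvin cycle enzymes in the light, had 183, 157 and 165 in 4v, against 730.5, 668 and 434 in 0v (log2 difference −1.81 ± 0.21 SE, limma adjusted p = 0.00516). A second plastid fructose bisphosphatase gene, AT5G64380, was lower too (−1.03, limma adjusted p = 0.0133). Of the higher genes, *CPN60B1*, a subunit of the plastid chaperonin, had 4528, 3863 and 5221 in 4v, against 2137, 2491 and 1534 in 0v (1.16 ± 0.22 SE, limma adjusted p = 0.0192).

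Of 15 cytosolic counterparts of the plastid enzymes, 3 were lower and 2 higher in 4v, against 6.99% and 6.46% of all genes. *PGK3*, the cytosolic phosphoglycerate kinase, had 1708, 1869 and 1675 in 4v, against 1017, 1029 and 669 in 0v (log2 difference 0.97, limma adjusted p = 0.0212), and the aldolase gene *FBA8* was higher by 0.70 (limma adjusted p = 0.0286). The aldolase gene *FBA5* (−1.38, limma adjusted p = 0.0205) and the cytosolic fructose bisphosphatase gene *cyFBPase* (−0.80, limma adjusted p = 0.0125) were lower. The third lower gene, outside the naming rule, was that of the non-phosphorylating glyceraldehyde-3-phosphate dehydrogenase, AT2G24270 (−0.78, limma adjusted p = 0.0394). When each of the 6 libraries was left out in turn, *TRXF2* was called in all 6 fits, and the other genes called in these 3 lists in 1 to 4, with *FBA8*, *FBA5* and AT2G24270 in 1.

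Roots were part of the seedlings, so root markers were read in the same libraries. Of 14 markers 11 were tested. In 4v 2 were lower (*PYK10* and *TIP2;3*), or 18.2% of those tested, against 6.99% of all genes. None was higher, against 6.46% of all genes. At an unadjusted p under 0.05, for which no share of all genes is given here, 5 were lower and 1 higher. The lower were *PYK10*, *TIP2;3*, *CASP1*, *CASP2* and *PHT1;1*, and the higher was *IRT1*, with overlapping groups. Each of the 5 lower markers had all 4v libraries below all 0v libraries, which held for 18.7% of all genes. *SCR* had all 4v libraries above all 0v libraries, which held for 20.5% of all genes, with 277, 263 and 273 in 4v, against 236, 219 and 161 in 0v. Of the 11 markers tested, 6 had a negative log2 difference and 5 a positive one. Calls were the same in number with edgeR, 4 lower with DESeq2, and 6 lower and 2 higher with limma-voom. Of all 16771 genes, edgeR called 1202 lower and 946 higher, DESeq2 1389 and 1101, and limma-voom 2318 and 2498. The summed normalized counts of the 14 markers were 5655 to 8919 in 4v, against 14202 to 20836 in 0v. *PYK10* made up most of that sum, and without it the other 13 summed to 713 to 1148 in 4v, against 734 to 1348 in 0v, which overlapped. Counts of 0 occurred for *TIP2;3* in 4v replicate 3 and for *NRT2.1* in 0v replicate 1. The part of the proportion of root to shoot in the differences of the 33 genes was not tested.

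Upstream sequence was searched for short motifs known from light-regulated, clock-regulated and cold-regulated plant genes, on both strands of the 250 bases before each annotated gene start in the RefSeq TAIR10.1 genome. The G-box CACGTG was found in 5 of the 33 windows (15.2%), against 7.41% of 18305 windows over all genes, and the I-box GATAAG in 5 (15.2%), against 12.5%. The core of the cold-response element, CCGAC, was in 4 (12.1%), against 13%, and the evening element AAAATATCT in none, against 2.58%. Among the 8 genes called lower, *GGT1* held a G-box, *CP12-3* an I-box, and *GLDH3* and *GLYK* a CCGAC core. *GLDP1*, with no difference between the groups that passed, held both a G-box and a CCGAC core. The 200 bases nearest the gene start are shown for *GGT1* and *CP12-3*, called lower, and for *GLDP1* as a gene that was not called, read in the direction of the gene with the motif letters in capitals.
GGT1, minus strand, chr1:8272022-8272221: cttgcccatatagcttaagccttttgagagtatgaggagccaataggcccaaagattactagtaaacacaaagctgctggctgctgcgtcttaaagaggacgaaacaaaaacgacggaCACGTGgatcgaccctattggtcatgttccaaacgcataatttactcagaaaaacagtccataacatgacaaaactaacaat
CP12-3, plus strand, chr1:28728006-28728205: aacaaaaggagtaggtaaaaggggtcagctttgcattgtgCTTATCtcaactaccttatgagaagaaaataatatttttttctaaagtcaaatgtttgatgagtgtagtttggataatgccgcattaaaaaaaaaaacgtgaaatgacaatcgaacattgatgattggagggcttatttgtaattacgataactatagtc
GLDP1, minus strand, chr4:15931423-15931622: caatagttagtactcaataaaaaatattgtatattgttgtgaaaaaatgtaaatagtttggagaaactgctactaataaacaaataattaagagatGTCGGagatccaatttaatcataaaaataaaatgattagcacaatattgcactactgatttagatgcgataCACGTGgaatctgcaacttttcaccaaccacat
In *CP12-3* and for the CCGAC core of *GLDP1* the capitals show the motif as read on the opposite strand. The same motifs thus stood before genes that were called and genes that were not, and a match in these windows says nothing about binding.

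Some counts may hold reads of neighbours. *RCA*, *PGK1*, *HCEF1*, *RPI3*, *PRK*, *GOX1*, *GLDP1* and *GLDH3* overlap an annotated gene on the opposite strand, and *GAPA1*, *FBA3* and *GLDH3* one on the same strand. The sources used here do not say whether the quantification used strand, so reads from the shared stretches cannot be told apart.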

How the data were processed

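Libraries were made by the authors from polyadenylated RNA (TruSeq mRNA kit) and sequenced as read pairs of 75 bases. The authors quantified the reads with Kallisto on TAIR10 and normalized the counts in DESeq2, tools whose versions are not given in the sources used here. What they deposited is a signal, the count of a gene over the size factor of the library, and whole reads could be recovered from its steps for 100% of the values (tolerance 0.05 of a read). One gene of 18369 was left out for displaced values. Value columns that name no sample (20) and the authors' own fold changes and p-values were not used.

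Groups were compared with limma 3.58.1 (R 4.3.3, eBayes with trend) on log2(normalized count + 4) at a mean of 10 or more, adjusting p-values by Benjamini-Hochberg over the 16771 genes left. Single values per library were compared with two-sided exact permutation tests. As alternatives, pseudocounts of 1 and 16, a filter at 50 or none, a replicate block, quantile normalization, 3 tools on recovered reads (limma-voom, edgeR 4.0.16, DESeq2 1.42.0), thinning to 1636687 reads, the 4 shallow libraries, each library left out in turn and, added after seeing the data, depth class as a covariate were run. Coding sequences were aligned with Biopython 1.88, and the coordinates of all 33 members were the same in the table and in RefSeq TAIR10.1.

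The members and lists were chosen with earlier results of these data known. All 33 members are named, with each library's values for those called and for the largest difference in each role, and at most 4 genes of each other list by smallest adjusted p. Some further values, such as those of *GOX2*, *GLDP1*, *CP12-2*, *FBA3* and the clock and cold-induced genes, were added after they had been seen. One gene of the list on Calvin cycle regulation is counted but not reported here.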

Additional observations from a re-analysis of the deposited data

How the results depend on the processing

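No member was called higher in 4v in any fit. With pseudocounts of 1 and 16, no filter, a filter at a mean of 50, quantile normalization, edgeR and thinned reads, 7 to 9 members were called lower (*GOX1* was lost with no filter, quantile normalization and thinning, *SHM1* gained with the filter at 50). In these fits 1023 to 1264 genes were called lower over the whole table. DESeq2 on the recovered reads called 13 members lower, 6 of them of the Calvin cycle, and 1101 genes higher and 1389 lower over the whole table. Limma-voom called 12 members lower, 5 of them of the Calvin cycle, and 2498 genes higher and 2318 lower over the whole table. The 4 shallow libraries alone called 12 (6 of the Calvin cycle), without *CP12-3* and *GLDH3*. Gained there were *RCA*, *TPI*, *FBA1*, *FBA2*, *PRK* and *SHM1*, and 863 of the 16771 genes of the main fit were lower. With depth class as a covariate 12 members were called (5 of the Calvin cycle), and the number over the whole table in that fit is not given here. Whether the replicate numbers of the labels pair the libraries could not be decided. Deviations of same-numbered libraries correlated at 0.07, −0.13 and −0.13, and 1 of 6 libraries matched its own number best. The deep libraries, 4v replicate 2 and 0v replicate 3, carry different numbers and each matched the number of the other best. Depth and pairing therefore cannot be told apart in this check. With the replicate block 5 members were called lower, 3 of them of photorespiration (*GOX1*, *GGT1* and *GLDH3* were lost), and 481 genes were higher and 567 lower. The sign turned after quantile normalization for *RCA* (0.035), *GAPA1* (0.47), *GAPA2* (0.048), *FBA3* (0.068), *RPE* (0.17) and *RPI3* (0.012), for *GLDP1* with limma-voom (−0.12), edgeR (−0.16), DESeq2 (−0.17) and the shallow libraries (−0.43), and for *HCEF1* with the shallow libraries (−0.080). None was called in the setting where its sign turned. The cause was not tested. Leaving out each library gave 2 to 19 members lower, 1 to 10 of the Calvin cycle and 1 to 9 of photorespiration, 260 to 1521 genes higher and 400 to 1440 lower, and member medians of −0.74 to −0.27. The fits without 1 library hold fewer samples. In these fits the log2 difference ran over −0.50 to 0.33 for *GLDP1*, −0.24 to 0.095 for *GAPA1*, −0.73 to 0.070 for *PGLP1*, −0.34 to 0.14 for *RPI3*, −0.16 to 0.29 for *HCEF1* and −0.067 to 0.22 for *TKL1*. *TKL2* and *CP12-3* had as few as 6 and 17 reads in a library, where counting error limits the values, and every other member had at least 129.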
